A study of Physcomitrium patens with 47 samples.

Results

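Transcript levels 2 h into the light (zeitgeber time 2, ZT2) were compared between moss plants lacking COX11 (COX11 KO) and wild-type plants (WT) of Physcomitrium patens, in 9 of the 47 libraries of the series. The libraries were chosen by their titles. COX11 KO had 5 libraries, 3 of line 150 (150-1, 150-2 and 150-3) and 2 of line 152 (152-1 and 152-2), and WT had 4 (WT 1 to WT 4). In both lines a resistance cassette had been inserted into COX11 by homologous recombination. The labels give no treatment for either genotype. All plants were a mix of protonema, the filamentous juvenile tissue, and young gametophores, the leafy shoots. They were grown on liquid medium with 12 h of light and 12 h of darkness a day and, except at ZT0, frozen in the lit chamber. The labels do not say whether libraries of a group came from separate cultures. The p-values therefore speak of the spread among libraries, part of which may be technical. For the comparison between times, COX11 KO had 5 libraries at ZT0 (3 of line 150 and 2 of line 152) and 5 at ZT6 (2 and 3), and WT had 6 at ZT0 and 8 at ZT6. Plants in which NDUFA5 had been disrupted in the same way (NDUFA5 KO, lines 46 and 48) serve as a further knockout, with 4, 5 and 5 libraries at ZT0, ZT2 and ZT6. The lines are taken from the titles, which for 1 NDUFA5 KO library at ZT6 differ from another label. Plants of ZT0 were frozen in dim green light after a night in foil.

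COX11 is an assembly factor that delivers copper to cytochrome c oxidase, complex IV of the mitochondrial respiratory chain. Complex IV passes electrons from cytochrome c to oxygen and pumps protons, which drives ATP synthesis. In green tissue in the light, mitochondria work beside the chloroplasts, take up reducing power made there and supply ATP to the cytosol. The series asks what part respiration plays in the metabolism of the plant.

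Genes are named by the identifiers (IDs) of the deposited table. The table does not pair them with gene names, and none of the IDs was found in the reference annotation table used here, so COX11 itself could not be looked up as a check of the knockouts, tissue markers could not be checked, and no gene is given a function. In the naming of the moss genome the part of an ID before the separator stands for the chromosome. The files do not say this, and the part is called the ID prefix here. Results are given for all genes, for the genes with the prefix Pp3c2, and for the genes outside it.

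The libraries held 5880375, 6353707 and 6013569 counts in genes for COX11 KO 150-1, 150-2 and 150-3, 5895713 and 6226492 for 152-1 and 152-2, and 5824550, 5367324, 6714931 and 5324988 for WT 1 to WT 4. Counts are from 3′ tag sequencing, in which each transcript gives a read near its end. On the first principal component of log2 CPM (counts scaled to a common library size), which held 61.3% of the variance, COX11 KO libraries lay between 37.7 and 52.5 and WT libraries between -65.9 and -50.7. Without the Pp3c2 genes this component held 59.7%, and the groups still did not overlap. The second component held 11.5% and had 150-3 at 44.6 and 152-1 at -41.0 as its ends, both COX11 KO. The 100 highest genes took 17.7% ± 0.587 of the counts in COX11 KO and 20.2% ± 0.479 in WT (SD, n = 5 and 4). Every COX11 KO library had a lower share than every WT library (exact two-sided permutation test over libraries, p = 0.00794, the smallest that groups of 5 and 4 allow, adjusted p = 0.0159 over 4 measures of the libraries). Its part in the results below was not tested. The number of genes with at least 1 CPM was 17436 ± 118 in COX11 KO and 17294 ± 250 in WT (exact two-sided permutation p = 0.302, adjusted 0.402).

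Of the 18460 genes tested, 5516 differed between COX11 KO and WT at ZT2 (29.9%), with 2526 higher (13.7%) and 2990 lower (16.2%). The calls are those of edgeR's quasi-likelihood test with an FDR (Benjamini-Hochberg adjusted p) of 0.05. Of them, 2342 (12.7%) differed at least 2-fold, 1180 of them higher (6.39%) and 1162 lower (6.29%). Outside Pp3c2, 4631 of 17317 genes were called (26.7%), with 1667 higher (9.63%) and 2964 lower (17.1%). Among those, 704 were at least 2-fold higher (4.07%) and 1137 at least 2-fold lower (6.57%). In the Pp3c2 genes 885 of 1143 were called (77.4%), with 859 higher (75.2%) and 26 lower (2.27%), and 476 were at least 2-fold higher (41.6%) and 25 at least 2-fold lower (2.19%). They were 6.19% of the genes tested and held 34% of all genes called higher, 40.3% of those at least 2-fold higher and 0.870% of those called lower.

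The values per library were also set side by side without a model. In 2552 genes (13.8%) every COX11 KO library lay above every WT library, and in 3178 (17.2%) every one lay below. Outside Pp3c2 these were 1708 (9.86%) and 3150 (18.2%), and in Pp3c2 844 (73.8%) and 28 (2.45%). Genes that were both called and without overlap numbered 4603 (24.9%), of which 3772 lay outside Pp3c2 (21.8%). In bulk RNA, fewer cells of a type and less RNA per cell cannot be told apart, and this holds for every level given here.

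The size of the changes differed between the directions outside Pp3c2. The genes called higher had a median log2 fold change of 0.86 (COX11 KO over WT), and those called lower a median of -0.80, but the lower side had the longer tail, with 284 genes at least 8-fold lower and 77 at least 8-fold higher. The balance of the directions changed with the scaling, over all genes and outside Pp3c2. Over all genes, library totals gave 4147 higher and 1909 lower, and TMM computed without the Pp3c2 genes gave 2954 higher and 2578 lower. With TMM, a scaling that takes most genes as not changed, 36% of the called genes outside Pp3c2 were higher, with library totals alone 62.9%, and with TMM computed without the Pp3c2 genes 44.7%. The median over all genes of the log2 fold change was 0.18 with library totals and 0.00 with TMM. At 2-fold and more outside Pp3c2, library totals gave 1009 higher and 895 lower, the opposite balance to TMM, and TMM without Pp3c2 gave 779 higher and 1037 lower. At 8-fold and more, the lower side was the larger under all 3 scalings: 90 higher and 270 lower with library totals, and 78 higher and 280 lower with TMM without Pp3c2.

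**Figure D1:**
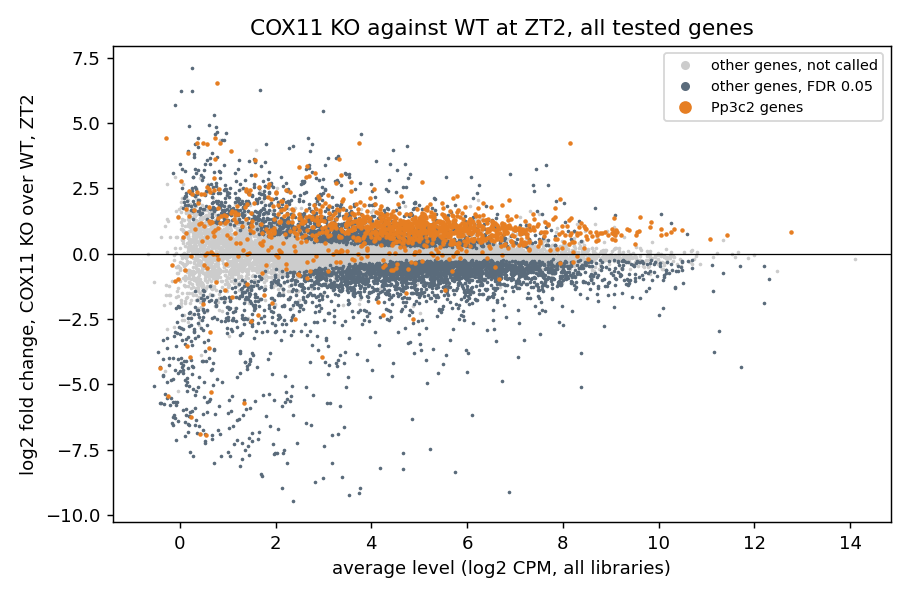
Log2 fold change (COX11 KO over WT at ZT2) against average level in log2 CPM over all libraries, one point per tested gene, with Pp3c2 genes in orange and other genes in grey or, at FDR 0.05, in slate. The Pp3c2 genes form a band above 0 with a median of 0.95, and the other genes centre near 0 with a tail of strongly lowered genes.

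The genes that went furthest outside Pp3c2 were named by a rule: FDR 0.05, average log2 CPM above 5, no overlap of libraries, and the largest change, 2 genes in each direction. Pp3c4_21500 was the most strongly raised. It had 1260, 1130 and 663 CPM in COX11 KO 150-1, 150-2 and 150-3 and 1009 and 750 CPM in 152-1 and 152-2, against 27.9, 38.9, 184 and 120 CPM in WT 1 to WT 4. The groups did not overlap, as the rule requires, and the WT libraries varied widely. Its log2 fold change was 3.37 ± 0.579 (SE, edgeR quasi-likelihood adjusted p = 1.26e-05), 3.45 in line 150 and 3.24 in line 152.

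Pp3c25_14630 had 619, 569 and 264 CPM in COX11 KO 150-1, 150-2 and 150-3 and 447 and 487 CPM in 152-1 and 152-2, against 51.6, 49.5, 85.3 and 46.5 CPM in WT 1 to WT 4. The lowest COX11 KO library, 150-3, was above the highest WT library, as the rule requires. Its log2 fold change was 3.03 ± 0.712 (SE, edgeR adjusted p = 9.08e-04). In the NDUFA5 KO lines at ZT2, Pp3c4_21500 stood at 561 ± 153 CPM and Pp3c25_14630 at 195 ± 58.9 CPM (SD, n = 5), given here without a test.

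On the lower side, Pp3c5_12950 had few counts in COX11 KO, with 1, 3 and 5 counts in 150-1, 150-2 and 150-3 and 4 and 6 counts in 152-1 and 152-2, against 3045, 1750, 944 and 1584 counts in WT 1 to WT 4. In CPM it averaged 0.574 ± 0.285 in COX11 KO and 333 ± 163 in WT (SD, n = 5 and 4), and its log2 fold change was -9.12 ± 0.946 (SE, edgeR adjusted p = 1.01e-09). Pp3c9_3710 had 0, 3 and 6 counts in 150-1, 150-2 and 150-3 and 1 and 1 count in 152-1 and 152-2, against 198, 214, 647 and 1532 counts in WT 1 to WT 4. The WT libraries of this gene were spread widely, at 35.2, 42.7, 101 and 285 CPM. Every one was above COX11 KO, as the rule requires, and the log2 fold change was -8.35 ± 1.22 (SE, edgeR adjusted p = 8.06e-07). It was -7.40 without WT 4 and -9.10 without COX11 KO 150-3. At ZT0 and ZT6, Pp3c5_12950 averaged 0.378 and 0.369 CPM in COX11 KO, against 566 and 91.6 CPM in WT. Pp3c9_3710 averaged 0.269 and 3.52 CPM in COX11 KO, against 218 and 82.9 CPM in WT, with 1 COX11 KO library at 16.4 CPM at ZT6. Both genes passed the edgeR test as lower in COX11 KO at those times too. Both were also low in the NDUFA5 KO lines, given here without a test. At ZT0, ZT2 and ZT6, Pp3c5_12950 averaged 0.673, 3.08 and 0.975 CPM there, and Pp3c9_3710 0.761, 7.59 and 2.65 CPM. The highest NDUFA5 KO libraries at ZT2 had 9.18 and 19.2 CPM, below the lowest WT libraries at ZT2 with 147 and 35.2 CPM.

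Among the 18460 genes tested, of which 6.19% were Pp3c2 genes, 62 had 0 counts in all 5 COX11 KO libraries and counts in all 4 WT libraries. They had 13 to 340 counts summed over WT, and 4 of them were Pp3c2 genes. The reverse, counts in all 5 COX11 KO libraries and 0 in all 4 WT libraries, held for 9 genes, with 15 to 101 counts summed over COX11 KO, 2 of them Pp3c2 genes. All 62 and all 9 passed edgeR's test, which adds no support, since they were chosen by these same values. A gene at 0 in a whole group could pass the filter on low counts only through other groups. The counts are a description. A count of 0 at this depth does not show that a gene is silent.

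**Figure D2:**
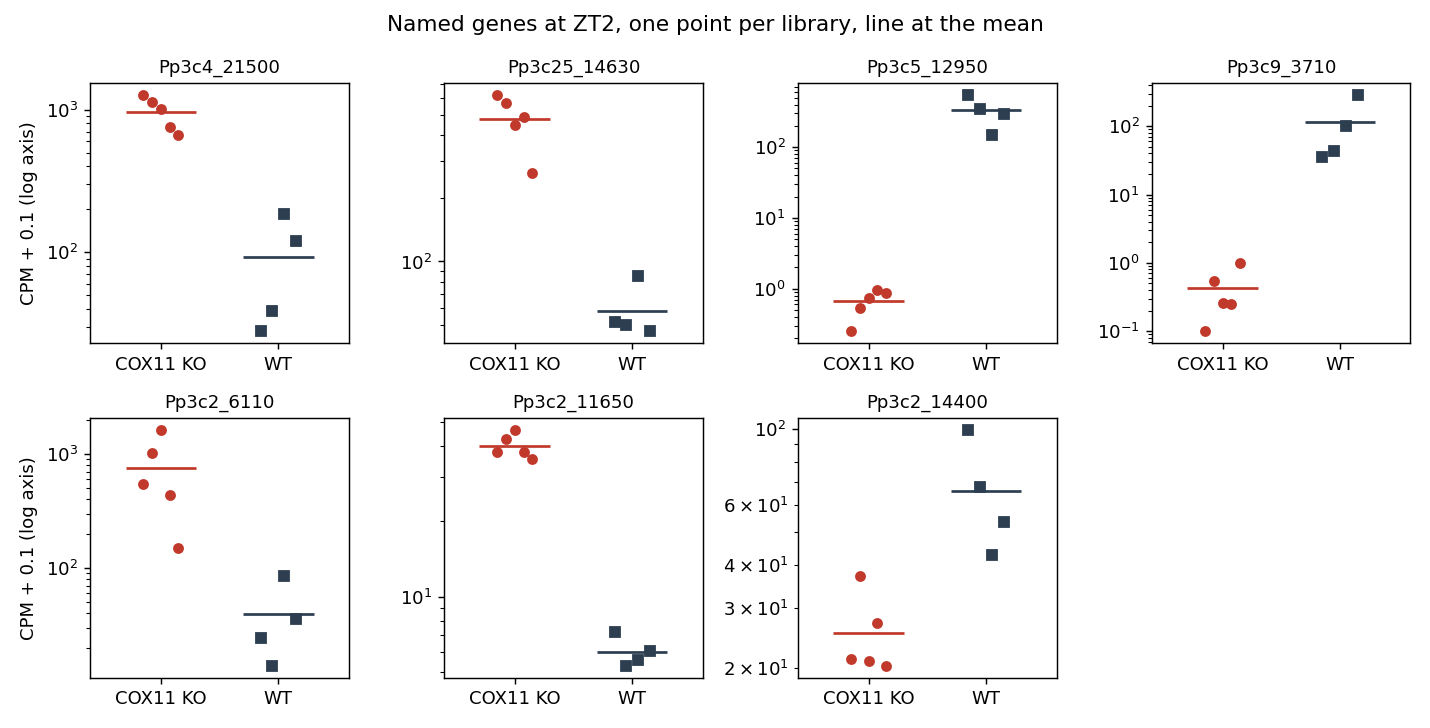
CPM plus 0.1 on a log axis for the named genes at ZT2, one point per library with a line at the mean, COX11 KO on the left and WT on the right of each panel. The COX11 KO libraries of Pp3c5_12950 and Pp3c9_3710 lie far below WT, and those of Pp3c4_21500 and Pp3c25_14630 lie above it.

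Most Pp3c2 genes, 859 of 1143, rose. Their median log2 fold change was 0.95, with the middle 50% of the genes between 0.64 and 1.23, whereas the other genes had a median of -0.03 and a middle 50% between -0.34 and 0.27. In each library, the median over Pp3c2 genes of log2 CPM minus the WT mean was 0.92, 0.91 and 0.93 in COX11 KO 150-1, 150-2 and 150-3 and 0.91 and 0.92 in 152-1 and 152-2. In WT 1 to WT 4 it was 0.01, 0.02, 0.00 and -0.02. The 5 COX11 KO libraries lay within 0.02 of each other and the groups did not overlap. The difference was 0.91 (two-sided permutation test, p = 0.00794, the smallest that groups of 5 and 4 allow, adjusted p = 0.0268 over the 27 prefixes). With library totals in place of TMM it was 1.08, and with TMM computed without the Pp3c2 genes 0.97.

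The other prefixes moved far less. Among the other 26, the difference between COX11 KO and WT lay between -0.06 and 0.02 log2 units. Of them, 10 passed the same permutation test at an adjusted p of 0.05, all of them negative. Each gene was centred on the WT mean before these medians were taken, which treats the groups unlike. The permutation p-values of all prefixes, Pp3c2 included, are therefore approximate. The sign and the calls of these small differences changed with the scaling. With library totals they lay between 0.11 and 0.19 and all 26 passed as positive, and with TMM computed without the Pp3c2 genes they lay between -0.01 and 0.07 and 5 passed, all positive. The Pp3c2 difference was above the range of the other prefixes under all 3 scalings. Between 7.84% and 13% of their genes were called higher, and between 14.3% and 21% lower. The share of all counts in Pp3c2 genes was 11.2%, 11.1% and 11.2% in 150-1, 150-2 and 150-3 and 11% and 11% in 152-1 and 152-2, against 5.54%, 5.59%, 5.64% and 5.6% in WT 1 to WT 4 (exact two-sided permutation p = 0.00794, adjusted 0.0159 over 4 measures of the libraries).

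**Figure D3:**
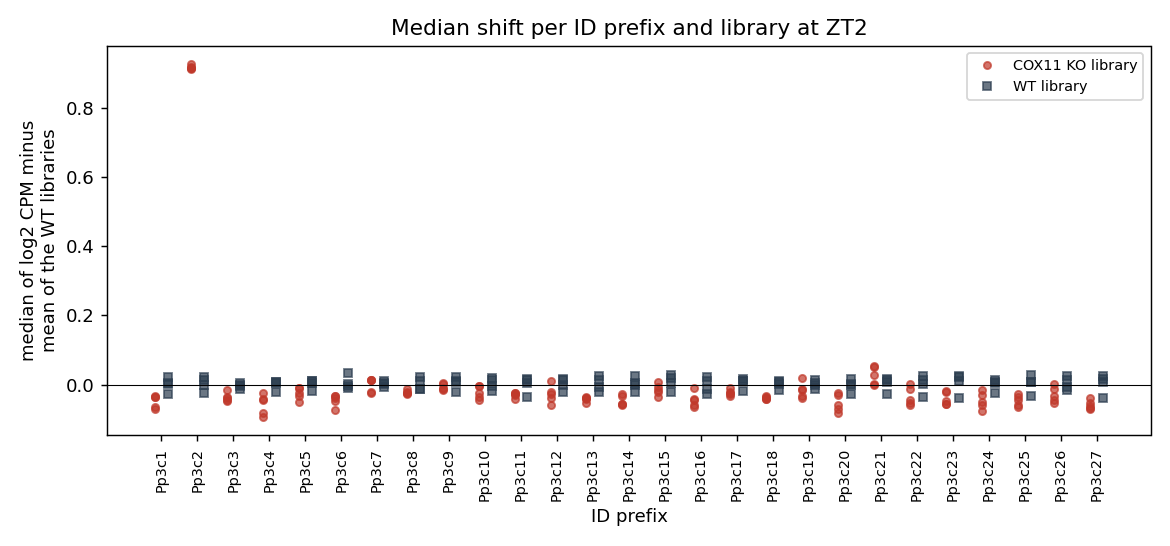
Median log2 CPM of the genes of each ID prefix, minus the mean of the WT libraries, one point per library at ZT2 with COX11 KO in circles left of WT in squares. Pp3c2 stands at 0.91 to 0.93 in COX11 KO and near 0 in WT, and with this scaling (TMM) the libraries of the other prefixes lie close to 0 in both.

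The median shift was of like size along the Pp3c2 genes in ID order. Cut into 10 equal classes by ID number, the classes had median log2 fold changes of 1, 0.96, 1.03, 0.99, 0.96, 0.98, 0.84, 0.86, 0.93 and 0.91. From 68.4% to 80.7% of the genes of a class were called higher. ID order follows position only if the IDs were numbered along the chromosome, which the files do not state.

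The 2 Pp3c2 genes named as raised were picked for the largest changes, so they lie above the median of the prefix by the rule. Pp3c2_6110 had 540, 1022 and 151 CPM in COX11 KO 150-1, 150-2 and 150-3 and 1621 and 432 CPM in 152-1 and 152-2, against 24, 13.8, 84.5 and 35.5 CPM in WT 1 to WT 4. The groups did not overlap, as the rule requires, but the COX11 KO libraries spread more than 10-fold, with 152-1 highest and 150-3 lowest. Its log2 fold change was 4.25 ± 0.975 (SE, edgeR adjusted p = 7.07e-04), 3.76 without 152-1 and 4.95 without WT 3. Pp3c2_11650 was far steadier, at 37.8, 42.7 and 35.2 CPM in 150-1, 150-2 and 150-3 and 46.2 and 37.7 CPM in 152-1 and 152-2, against 7.11, 5.19, 5.46 and 5.95 CPM in WT 1 to WT 4, a log2 fold change of 2.75 ± 0.235 (SE, edgeR adjusted p = 2.62e-11).

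Against the trend of their prefix, 26 Pp3c2 genes fell. Their median log2 fold change was -2.53, and 12 of them were at least 8-fold lower. Pp3c2_14400 was the gene of this set that met the rule for naming, and it was among the least lowered of the 26. It had 21.2, 37 and 20.2 CPM in COX11 KO 150-1, 150-2 and 150-3 and 20.9 and 26.9 CPM in 152-1 and 152-2, against 99.1, 67.6, 42.7 and 53.2 CPM in WT 1 to WT 4, a log2 fold change of -1.38 ± 0.281 (SE, edgeR adjusted p = 1.65e-04). The log2 fold change of this gene was -1.30 at ZT0 (edgeR adjusted p = 1.14e-04) and -0.16 at ZT6, where it did not pass (edgeR adjusted p = 0.636). In NDUFA5 KO at ZT2 it stood at 58.0 ± 22.2 CPM (SD, n = 5), given here without a test.

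Outside Pp3c2, the shares called higher and lower differed by level. The genes were put into 4 equal classes by mean level over the 47 libraries. In the lowest class 12.9% were higher and 13.6% lower, and in the next 11.6% and 10.7%. In the one above that 8.69% were higher and 16.4% lower, and in the highest 5.06% and 28.2%. The median log2 fold changes ran 0.11, 0.06, -0.03 and -0.15 in the same order. With library totals the shares were 18.4% and 11.8%, 21.5% and 6.97%, 20.7% and 8.81%, and 13.2% and 16.2%. The lowest and the third class, with more lower than higher genes under TMM, then had more higher ones. The highest class had more lower than higher genes under all 3 scalings.

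**Figure D4:**
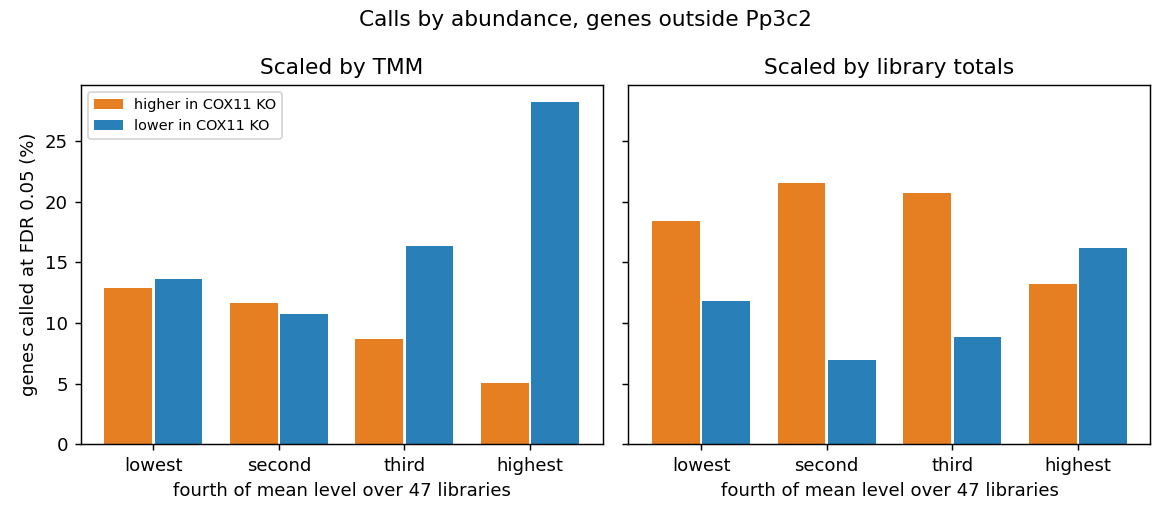
Percent of genes outside Pp3c2 called higher (orange) or lower (blue) in COX11 KO at FDR 0.05, by mean level class from lowest to highest, with TMM on the left and library totals on the right. The highest class has 28.2% lower and 5.06% higher with TMM, and 16.2% lower and 13.2% higher with library totals.

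The genes were also classed by how WT changed over the day, from ZT0 to ZT6, in WT libraries other than those at ZT2. The calls for these classes came from the same fit of the 47 libraries as those at ZT2. Outside Pp3c2, 2020 genes were called at least 2-fold higher in WT at ZT6 than at ZT0, and of these 15.8% were higher and 20.0% lower in COX11 KO at ZT2. Of the 1576 genes called at least 2-fold lower at ZT6 than at ZT0 in WT, 5.01% were higher and 22% lower. Of the other 13721 genes, 9.24% were higher and 16.1% lower. With library totals the balance turned in the class higher at ZT6, with 22.6% higher and 15.4% lower, and in the other genes, with 18.8% higher and 9.63% lower. The genes lower at ZT6 in WT had a median log2 fold change of -0.17, beside -0.03 over all genes outside Pp3c2. Their median in each COX11 KO library lay between -0.21 and -0.12, below the range of the WT libraries of -0.03 to 0.03. Over all genes outside Pp3c2 the libraries did not overlap either, at -0.04 to -0.03 in COX11 KO and -0.02 to 0.01 in WT. Each gene was centred on the WT mean here, which treats the groups unlike, so a lack of overlap alone says little. With library totals the median of the genes lower at ZT6 was -0.00, beside 0.15 over all genes outside Pp3c2. Of the class 10.7% were then higher and 16.1% lower, beside 18.5% and 10.9% of all genes outside Pp3c2.

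Genes changed in the knockouts at other times were followed at ZT2. They were picked in libraries that do not enter the ZT2 comparison, by a call with a change of at least 2-fold at both ZT0 and ZT6. In COX11 KO at ZT0, 19.9% of all genes were called higher and 20.7% lower (outside Pp3c2 15.9% and 21.9%, in Pp3c2 79.2% and 2.54%). At ZT6 these shares were 20.7% and 23.1% (outside Pp3c2 17.1% and 24.4%, in Pp3c2 75.2% and 3.24%). Among genes outside Pp3c2, 353 were raised in COX11 KO at both, and of them 256 were higher at ZT2 (72.5%) and none lower, with a median log2 fold change of 1.74. Of the 679 genes lowered at both, 587 were lower at ZT2 (86.5%) and none higher, with a median of -2.41. Among all genes outside Pp3c2, which were not matched to these classes for level or spread, 9.63% were higher and 17.1% lower. The lines are the same at the 3 times, so these libraries are not from independent knockouts.

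The same was done with the other knockout of the series. NDUFA5 is a subunit of complex I, the entry point of NADH electrons into the respiratory chain, and its disruption was compared with WT at ZT0 and ZT6. At ZT0 30% of all genes were higher and 31.6% lower there (outside Pp3c2 27.9% and 32.9%, in Pp3c2 62.3% and 11.8%), and at ZT6 18.7% and 20.5% (outside Pp3c2 15% and 21.6%, in Pp3c2 75.2% and 3.59%). Of 334 genes outside Pp3c2 raised at both times there, 202 (60.5%) were higher in COX11 KO at ZT2 and 2 were lower, Pp3c13_5870 with a log2 fold change of -1.34 and Pp3c7_13080 with -1.09. Of 740 genes outside Pp3c2 lowered at both times, 608 (82.2%) were lower and 1 was higher, Pp3c11_24520 with 0.95. These 3 genes are named because they were few, after their values were seen. The per-library medians did not overlap between COX11 KO and WT in any of these 4 classes of genes. These medians too were taken after centring on the WT mean. All 4 classes came from the same fit of the 47 libraries as the calls at ZT2. They were also defined against WT, which is the reference at ZT2 too. A trait of the WT plants would enter both comparisons, so they are not independent, and its part was not tested.

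The lines were also tested apart. Line 150 against WT gave 5113 genes (27.7%), with 2358 higher (12.8%) and 2755 lower (14.9%), and 4268 outside Pp3c2 (24.6%). Line 152 against WT gave 3466 genes (18.8%), with 1706 higher (9.24%) and 1760 lower (9.53%), and 2654 outside Pp3c2 (15.3%). The split by direction changed with the scaling: with library totals line 150 had 3945 higher and 1804 lower genes, and line 152 had 2441 higher and 1143 lower. Both comparisons use the same 4 WT libraries, and line 152 has 2 libraries against 3. Without 152-1 the line 152 count was 1498 (951 higher and 547 lower), and without 152-2 it was 2166 (1215 higher and 951 lower), where the lone library is assumed to vary like the others. Line 150 against line 152 gave 0 genes by edgeR, with 586 (3.17%) at an unadjusted p under 0.05, and 1 by DESeq2. That gene, Pp3c10_10290, had 58.1, 29.7 and 62.1 CPM in 150-1, 150-2 and 150-3 and 21.7 and 17.2 CPM in 152-1 and 152-2. Without 150-2, edgeR called 3 genes, this one, Pp3c1_12330 and Pp3c17_18130. A count of 0 does not show that the lines act alike.

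The COX11 KO effect at ZT2 differed from that at other times in some genes. The effect at ZT2 minus that at ZT0 passed in 1554 genes (8.42%), 831 of them positive (4.5%) and 723 negative (3.92%). Outside Pp3c2 these were 1463 (8.45%), 786 (4.54%) and 677 (3.91%). The effect at ZT2 minus that at ZT6 passed in 1182 genes (6.4%), 517 positive (2.8%) and 665 negative (3.6%). Outside Pp3c2 these were 1123 (6.48%), 494 (2.85%) and 629 (3.63%). The balance of signs changed with the scaling and the tool. For ZT2 minus ZT0, library totals gave 672 positive and 794 negative genes and DESeq2 1119 and 730. For ZT2 minus ZT6, library totals gave 405 and 783 and DESeq2 693 and 788. Each sample code starts with a letter, A or Z, with no stated meaning, and the letter largely went with time. At ZT0 all 5 COX11 KO and all 6 WT libraries had Z, at ZT2 1 of 5 COX11 KO and 0 of 4 WT libraries, and at ZT6 4 of 5 COX11 KO and 6 of 8 WT libraries. No value within 1 letter can be had for ZT2 minus ZT0, since no ZT0 library of these genotypes has A, and for ZT2 minus ZT6 the letter A holds 1 COX11 KO library at ZT6, too few. With the letter as a covariate, 1449 genes passed for ZT2 minus ZT0 and 1242 for ZT2 minus ZT6. In the first set the effects had opposite signs at the 2 times in 1049 genes, 140 of them called at both, and the same sign but a smaller size at ZT2 in 308 and a larger one in 197. In the second set these were 633, 77, 413 and 136. The median size of the difference was 0.86 log2 units in the first set and 0.87 in the second. Of the Pp3c2 genes, 91 of 1143 (7.96%) and 59 (5.16%) passed, and their median difference was -0.03 against ZT0 and 0.02 against ZT6, beside -0.02 and 0.02 over all genes.

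The largest positive differences against ZT0 under the naming rule were in Pp3c24_18690 and Pp3c17_13940. Pp3c24_18690 had 2.02 ± 1.36, 72.1 ± 60.1 and 5.62 ± 2.50 CPM at ZT0, ZT2 and ZT6 in COX11 KO, against 123 ± 67.7, 186 ± 77.7 and 152 ± 62.1 CPM in WT (SD, n = 5 at each time in COX11 KO and 6, 4 and 8 in WT). COX11 KO was far below WT at ZT0 and ZT6 and came nearer at ZT2, where the libraries overlap, and the difference of effects between ZT2 and ZT0 was 4.6 ± 0.777 (SE, edgeR adjusted p = 1.43e-04). COX11 KO 152-1 had 174 CPM at ZT2 and the others 24.2 to 73.2, and without 152-1 the difference was 3.97. Pp3c17_13940 had a higher mean at each later time in both genotypes, with 4.89, 92.4 and 471 CPM in COX11 KO and 13.3, 47.5 and 300.0 CPM in WT at ZT0, ZT2 and ZT6. Its difference was 2.44 ± 0.640 (SE, edgeR adjusted p = 0.0115), while at ZT2 itself the log2 fold change of 0.96 did not pass (adjusted p = 0.0875). At ZT0 the WT libraries ran from 3.02 to 30.7 CPM with a median of 5.68, with replicates 2 and 3 of that time at 30.4 and 30.7 CPM. The COX11 KO libraries of ZT0 ran from 1.65 to 8.30 CPM with a median of 4.58. Libraries of ZT0 were not left out in turn.

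The negative differences against ZT0 were largest in Pp3c11_14810 and Pp3c4_30530. Pp3c11_14810 had its highest mean at ZT2 in both genotypes, with 36.6, 144 and 4.54 CPM in COX11 KO and 5.73, 108 and 8.68 CPM in WT at ZT0, ZT2 and ZT6. Its log2 fold change was 2.66 at ZT0 and 0.41 at ZT2, where it did not pass, with a difference of -2.25 ± 0.512 (SE, edgeR adjusted p = 0.00342). Pp3c4_30530 had 111, 17.3 and 19.5 CPM in COX11 KO and 134, 90.5 and 55.2 CPM in WT at the 3 times. At ZT0 its log2 fold change was -0.27 (adjusted p = 0.460). COX11 KO had 17.7, 21.2 and 10.6 CPM in 150-1, 150-2 and 150-3 and 10.95 and 26.1 CPM in 152-1 and 152-2 at ZT2, against 125, 90.5, 62.8 and 84.0 CPM in WT 1 to WT 4 (difference -2.11 ± 0.424, SE, edgeR adjusted p = 0.00100).

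Between ZT2 and ZT6, Pp3c10_22850 and Pp3c24_9670 had the largest positive differences, and both rest on widely spread libraries. Pp3c10_22850 had 0.531, 56.5 ± 83.2 and 1.55 CPM at ZT0, ZT2 and ZT6 in COX11 KO, with 202 CPM in 152-1 and 2.58 to 47.6 CPM in the others at ZT2, and 1.54, 22 ± 18.8 and 132 ± 206 CPM in WT. The WT libraries at ZT6 ran from 1.6 to 490 CPM with a median of 17.7. The difference of effects was 7.77 ± 1.86 (SE, edgeR adjusted p = 0.00710), 6.29 without 152-1 and 8.52 without WT 3. At ZT2 itself the log2 fold change of 1.34 did not pass (edgeR adjusted p = 0.414). Pp3c24_9670 had 3.75, 177 ± 153 and 8.47 CPM in COX11 KO and 2.19, 67.3 ± 62 and 81.4 ± 97.3 CPM in WT, a difference of 4.66 ± 1.29 (SE, edgeR adjusted p = 0.0207). It no longer passed without 152-1, WT 2 or WT 4, where it was 4.04, 4.39 and 4.46 with an adjusted p of 0.0542 to 0.0554, and it was 5.54 without WT 3. At ZT2 itself the log2 fold change of 1.39 did not pass (edgeR adjusted p = 0.265). Libraries of ZT6 were not left out in turn.

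The largest negative differences between ZT2 and ZT6 were in Pp3c5_12030 and Pp3c1_25080. Pp3c5_12030 had 23.8, 5.54 ± 2.72 and 30.2 CPM in COX11 KO and 63.9, 19.6 ± 8.69 and 13.9 CPM in WT at ZT0, ZT2 and ZT6. COX11 KO was below WT at ZT2 and above it at ZT6 (difference -2.94 ± 0.439, SE, edgeR adjusted p = 3.72e-05). Pp3c1_25080 had 109, 19.7 ± 5.62 and 12.5 ± 8.47 CPM in COX11 KO and 142, 50.0 ± 9.34 and 5.91 ± 2.11 CPM in WT. Its difference was -2.42 ± 0.515 (SE, edgeR adjusted p = 0.00257). At ZT6 its COX11 KO libraries ran from 4.45 to 22.9 CPM with a median of 7.48, and the WT libraries from 2.83 to 8.27 CPM. Of the genes named for ZT2 itself, Pp3c4_21500 differed between ZT2 and ZT6 by 4.02 (edgeR adjusted p = 0.00170). It had 3.32 CPM in COX11 KO against 5.06 CPM in WT at ZT6. At ZT0 it had 54.7 against 1.68 CPM, a log2 fold change of 4.98 (edgeR adjusted p = 2.38e-08). Pp3c25_14630 had 165 against 2.94 CPM at ZT0, a log2 fold change of 5.78 (edgeR adjusted p = 4.72e-08). The effect at ZT2 minus that at ZT0 passed in neither gene (-1.61 and -2.74, edgeR adjusted p = 0.238 and 0.0687).

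**Figure D5:**
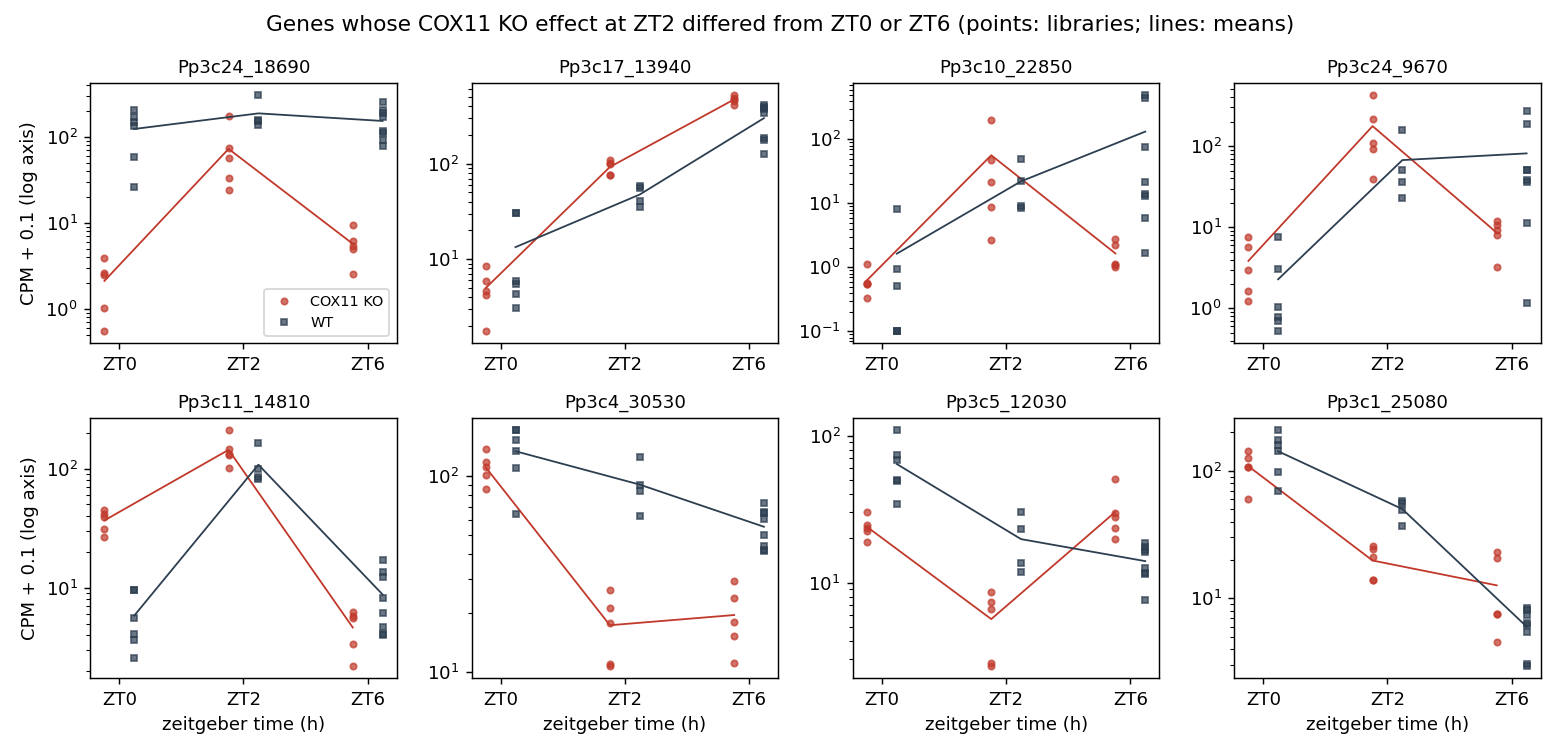
CPM plus 0.1 on a log axis at ZT0, ZT2 and ZT6 for genes whose COX11 KO effect differed between ZT2 and another time, one point per library and lines at the means, COX11 KO drawn left of WT. The gap between COX11 KO and WT opens, closes or turns round between the times, as for Pp3c5_12030, which lies below WT at ZT2 and above it at ZT6.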

How the data were processed

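The values deposited by the authors are estimated counts for each gene, with no normalization. The submitters' processing notes list HTSeq 2.0.2, Bowtie2 2.2.5 and SAMtools 1.6. No settings, genome build or annotation are given in the sources used here. In the 9 libraries, 2.41% of the values were not whole (tolerance 1e-06), in 1323 tested genes, 324 of them called. Estimated counts were rounded before testing. None of the named genes has such values. The 57 columns hold 47 matched libraries, and the other 10 columns were not used. The 5 HTSeq summary lines, which held 30.8% ± 2.24 of the counts in COX11 KO and 29.7% ± 2.32 in WT (SD, n = 5 and 4), were left out.

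Genes were kept by filterByExpr over 9 groups (18460 of 32926), scaled by TMM (factors 1.05 to 1.12 in COX11 KO and 0.935 to 1.01 in WT) and fitted to all 47 libraries with edgeR 4.0.16 (R 4.3.3, limma 3.58.1), with 1 mean per genotype and time. Quasi-likelihood F tests were called at an adjusted p of 0.05. The line model had 1 mean per line and time. DESeq2 1.42.0 was an alternative. The common biological coefficient of variation was 21.8%. CPM uses TMM-scaled totals, and log2 CPM a prior count of 2. Standard errors were derived from the F statistic. Chi-square per gene between libraries of a group was 4.50 to 24.4 over genes with at least 20 counts, so no library was counted as a copy. At ZT2, all 4 WT libraries and 4 of the 5 COX11 KO libraries had sample codes with the letter A, and COX11 KO 150-3 had the letter Z. Its meaning is not given.

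The members, gene classes and tests were chosen with earlier results of these data known. Named genes are at most 2 per direction in each set, with FDR 0.05, average log2 CPM above 5 and, outside the time differences, no overlap. With no gene names, lists by function could not be tested. Same-numbered libraries of the 2 genotypes did not deviate together (correlation -0.168 to -0.0333 over 5 pairs). Alternatives were other scalings, filters, sets of libraries, a replicate block, the code letter and leaving out each library.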

Additional observations from a re-analysis of the deposited data

Results flagged for a closer look

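Values far from the rest of a group were searched in 40 groups of libraries by Dixon's test at 95%, which chance alone flags in about 1 of 20, and 4 were found. Pp3c10_22850 had 202 CPM in COX11 KO 152-1, against 47.6 in the next library. Pp3c25_14630 had 85.3 CPM in WT 3, against 51.6 in the next. Pp3c24_18690 had 302 CPM in WT 4, against 155 in the next. HTSeq summary lines took 26.2% of the counts in WT 3, against 30.6% in the next. COX11 KO 152-1 was also the highest COX11 KO library at ZT2 for Pp3c2_6110, Pp3c24_9670 and Pp3c24_18690.

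The COX11 KO effect differed between times by edgeR's quasi-likelihood interaction test in 1554 genes for ZT2 minus ZT0 and in 1182 for ZT2 minus ZT6. For ZT2 minus ZT0, the named genes gave 4.6 for Pp3c24_18690, 2.44 for Pp3c17_13940, -2.25 for Pp3c11_14810 and -2.11 for Pp3c4_30530 on the log2 scale. For ZT2 minus ZT6, Pp3c10_22850 had 7.77, Pp3c24_9670 4.66, Pp3c25_14630 4.12, Pp3c4_21500 4.02, Pp3c2_6110 3.79 and Pp3c24_18690 3.39. On the negative side Pp3c5_12030 had -2.94, Pp3c1_25080 -2.42 and Pp3c2_14400 -1.22. For Pp3c25_14630, the WT libraries of ZT6 ran from 1.30 to 94.7 CPM with a median of 5.01. Its COX11 KO libraries of ZT6 ran from 4.93 to 10.2 CPM with a median of 6.92. The log2 fold change of this gene at ZT6 was -1.09 and did not pass (edgeR adjusted p = 0.179).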

How the results depend on the processing

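At a threshold of 2-fold besides FDR 0.05, the 5516 genes called and the 4631 outside Pp3c2 were 2342 and 1841. The other settings stayed within 1.5 times: library totals gave 6056 and 5093, TMM without Pp3c2 5532 and 4617, no filter 5416 and 4524, at least 10 counts in 4 of the libraries 5190 and 4332, a fit of only the 9 libraries 6887 and 5936, code letter A alone 6705 and 5748, the letter as a covariate 5414 and 4531, and DESeq2 5702 and 4809. With Pp3c2 taken out before the fit, 4413 were called. With a replicate block, which uses replicate numbers that do not pair the libraries, 5914 and 5010 were called, and the log2 fold change was 4.10 for Pp3c4_21500 and -7.19 for Pp3c9_3710. Leaving out a library gave 4449 to 5262 genes and 3607 to 4405 outside Pp3c2, lowest without WT 1 in both. Differences between times were 1133 to 1499 (ZT2 minus ZT0) and 802 to 1331 (ZT2 minus ZT6). Line 150 against WT gave 3907 to 5056, and line 152 against WT 1498 to 3434, lowest without 152-1. Line 150 against line 152 gave 0 to 3, with 3 only without 150-2, and 1 by DESeq2, which was run on the lines after seeing the data. Without 152-1 or 152-2, line 152 has 1 library. The cause of the other moves was not tested. Of the 26 prefixes other than Pp3c2, 10 passed with TMM, 26 with library totals and 5 with TMM without Pp3c2, 2 settings chosen after seeing the data. The Pp3c2 median was 0.90 to 0.93 without single libraries and 1.08 with library totals. Of 222 values for 15 named genes, 219 kept direction and call, 3 (all Pp3c24_9670) lost the call and 0 reversed. Depth of 5324988 to 6714931 counts per library limits low genes: a group at 0 does not show absence.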
